A study of Mus musculus with 6 samples.

Results

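The ARF-p53 axis was followed as 32 genes of a table of 21448 genes. They were Trp53, which encodes p53, Cdkn2a, which encodes ARF and INK4a, the p53 inhibitors Mdm2 and Mdm4, and 28 genes listed as p53 targets. Whether p53 switches on each of the 28 in these mouse cells was not tested. The members were chosen by name, as rows whose gene symbol equalled a listed symbol, and all 32 were found. RNA had been sequenced from primary lymphoma B cells of E mu-Myc transgenic mice. In that strain the heavy chain enhancer of the immunoglobulin locus drives Myc in B cells, and the mice develop lymphoma. There were 6 libraries, 3 labelled wild type and 3 labelled PRDM15 KO, numbered 1 to 3 in each group. Per the labels' protocols all cells grew in culture with IL7 and were exposed for 24 hours to 50 nM OHT (4-hydroxytamoxifen), to delete Prdm15, or to ethanol, and were collected on day 3 after that. Both groups therefore carry the Myc transgene, and the titles do not say which library received OHT. The driver of the OHT-dependent deletion is not named in the sources used here.

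ARF, p53 and MDM2 form a brake on MYC. High MYC raises ARF, ARF holds back MDM2, and p53, no longer marked by MDM2 for destruction, switches on genes for cell cycle arrest, DNA repair and cell death. MDM2 and several other inhibitors of p53 are themselves p53 targets, which closes a feedback loop, and p53 itself is regulated mainly as a protein, so the amount of its mRNA is not a measure of its activity. Lymphomas of E mu-Myc mice are known to lose ARF or p53 often, and a mutated p53 gene can still be transcribed.

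p53 binds a pair of decamers, short inverted repeats that lie next to each other or a few bases apart. RefSeq promoter windows (GRCm38.p6, 250 bases before to 50 bases after a transcription start) were at hand for 25 of the 32 members. An exact match to the p53 decamer, which reads the same on both strands, stood in a window of 10 of these 25 genes, and of 9.55% of all 27025 genes with a window. Most members were chosen as listed p53 targets, so this share is a description of the list. The matches are printed to show where the searched letters stood at these genes, and whether p53 binds there was not measured. Those upstream of a start are given with 10 bases on either side, the decamer in capitals:

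Trp53, chr11:69580274-69580303, plus strand: acccacggaaGGACTTGCCCttacttgtta

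Mdm2, chr10:117710925-117710954, minus strand: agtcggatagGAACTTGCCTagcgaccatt

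Ccng1, chr11:40755452-40755481, minus strand: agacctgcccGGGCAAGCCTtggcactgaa

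Aen, chr7:78895927-78895956, plus strand: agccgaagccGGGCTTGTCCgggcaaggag

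Sesn1, chr10:41887256-41887285, plus strand: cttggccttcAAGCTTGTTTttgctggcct

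Ei24, chr9:36797325-36797354, minus strand: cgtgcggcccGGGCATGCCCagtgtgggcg

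Gadd45a, chr6:67037428-67037457, minus strand: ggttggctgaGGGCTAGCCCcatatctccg

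Ppm1d, chr11:85311112-85311141, plus strand: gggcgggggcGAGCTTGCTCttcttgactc

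Polk, chr13:96519399-96519428, minus strand: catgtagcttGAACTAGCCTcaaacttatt

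Cdkn1a was the only member whose windows held a pair of decamers at most 13 bases apart. Such a pair stood in a window of 20 of the 27025 genes, or 0.074%. It lay before the upstream of the 2 listed starts of Cdkn1a, which are 2790 bases apart. Directly after the second decamer below stands tgacatgttc, which misses the searched letters only at its first base and so stays in lower case. The stretch is printed to show that match to the searched letters, with both decamers in capitals, and whether p53 binds there was not measured:

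Cdkn1a, chr17:29090876-29090967, plus strand: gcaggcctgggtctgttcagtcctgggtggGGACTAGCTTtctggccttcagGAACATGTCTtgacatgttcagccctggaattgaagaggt

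Cdkn2a also has 2 starts, 12427 bases apart. The upstream start gives the ARF transcript and the downstream start the INK4a transcript, which share later exons read in different frames. The 120 bases before each start show how unlike these promoters are, with each CG pair in capitals:

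Cdkn2a upstream start (ARF), chr4:89294620-89294739, minus strand: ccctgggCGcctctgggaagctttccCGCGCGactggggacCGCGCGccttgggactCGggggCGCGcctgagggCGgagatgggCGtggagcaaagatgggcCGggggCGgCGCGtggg

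Cdkn2a downstream start (INK4a), chr4:89282193-89282312, minus strand: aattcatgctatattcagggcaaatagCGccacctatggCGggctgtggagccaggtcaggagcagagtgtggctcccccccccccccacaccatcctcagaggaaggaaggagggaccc

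The 250 bases before the ARF start held 40 CG pairs, and 1.31% of all windows held as many or more. Those before the INK4a start held 7, and 46.3% of all windows held as many or more. The table has a single row for Cdkn2a, so its values sum both transcripts and do not show how much of either was made.

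Values are reads of a gene scaled to the effective library size (CPM), not divided by gene length, so levels are compared between libraries and not between genes. Unless said otherwise, 3 values in a row are those of replicates 1, 2 and 3 of a group. The libraries held 28852951 to 47255421 reads assigned to genes. A change is the difference of mean log2(value + 1), knockout minus wild type, tested with limma on the 10533 genes whose mean over the libraries was 1 or more, with Benjamini-Hochberg adjustment over all of them and a threshold of 0.05. Each change was tested without the replicate number (unpaired) and with it as a block (paired), since libraries of the same number deviated together from their group means. Prdm15 was at 29.2, 47.25 and 41.3 in wild type and at 40.2, 40.95 and 39.2 in knockout (paired adjusted p = 0.834). That value sums the whole gene and cannot reveal a lost exon, so it does not check the labels on which the group names rest. B cell markers were present in all libraries, with a sum over 8 markers of 1236 to 1720 in wild type and 1136 to 1669 in knockout, and Cd79b, a chain of the B cell receptor complex, at 389.3 to 518.6. Of these 8 markers 6 had a log2 change below 0, with a median of -0.34, and limma called 0 in either fit, with 3 lower at an unadjusted paired p under 0.05. DESeq2 with the pairs called 1 lower, the inhibitory receptor Cd22 (log2 change -1.15, limma paired adjusted p = 0.0713), which was named after its values were seen. Myeloid markers set knockout replicates 2 and 3 apart. The sum of the 15 markers was 61.7, 222.6 and 169.6 in wild type and 38.8, 2237 and 1205 in knockout, none of them at 0 in all libraries, Lyz2 and Mpeg1 leading it. In these bulk samples, fewer cells of a type and less RNA per cell cannot be told apart.

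No member of the ARF-p53 axis passed the test between the groups, in the unpaired or in the paired fit. Of the 32 members, 27 passed the filter on low values, and 0 of 27 were called in the unpaired fit, against 0.00949% of all genes tested. In the paired fit 0 were called higher, against 0.133% of all genes, and 0 lower, against 0.741%. At an unadjusted p under 0.05 limma placed 0 members in the unpaired fit, where 4.06% of all genes were, and 3 of 27 in the paired fit, where 21% of all genes were. The 3 were Plk2 and Cd80 on the higher side and Ddb2 on the lower side. edgeR on the recovered reads called 0 in both fits, where it called 0.37% of all genes with the pairs, and had 4 of 27 members and 20.6% of all genes at an unadjusted p under 0.05 there. DESeq2 called 0 without the pairs (1.04% of all genes) and 2 with them, Plk2 and Cd80, against 7.01% of all genes.

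The changes of the members were about as large as those of the table at large. The median log2 change of the 27 members was 0.06, beside -0.03 over all tested genes, and the median absolute change was 0.12, beside 0.11. The members ranged from -0.41 for Ddb2 to 1.04 for Plk2. By pair, 7 of 27 were higher in all 3 pairs, where 16.7% of all genes were, and 5 were lower in all 3, where 29.9% were. In 2 members, Mdm2 and Sesn2, every knockout library lay above every wild type library (3.21% of all genes), and in 1, Xpc, every one lay below (6.29%).

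**Figure D1:**
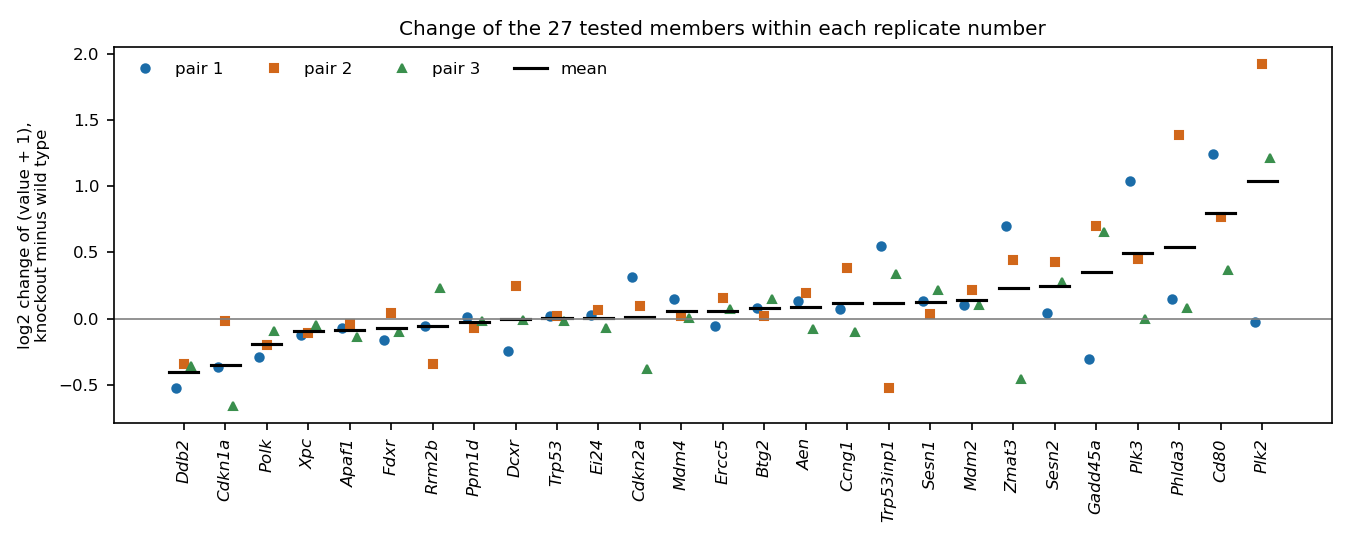
Log2 change of value plus 1, knockout minus wild type (vertical axis), of the 27 tested members, with 1 symbol per replicate number and a black bar for the mean. Trp53 lies at 0.02, 0.02 and -0.02 in pairs 1, 2 and 3, while Plk2 lies at -0.02, 1.92 and 1.21.

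Trp53 had almost the same level in both groups, and of all tested members the highest share of its variation lay between replicate numbers. Its level was 86.8, 71.9 and 56.9 in wild type, beside 87.8, 72.9 and 56.1 in the knockout libraries of those numbers. Libraries of the same number thus lay almost on top of each other, and the 3 numbers did not overlap. The group means were 71.9 ± 14.9 and 72.3 ± 15.9 (SD, n = 3 in each group here and below), and the paired log2 change was 0.01 with a 95% interval of -0.12 to 0.13 (limma adjusted p = 0.959). Between numbers, the mean of number 1 was 1.54 times that of number 3 (limma F test, adjusted p = 0.00497). Replicate number took 99.9% of the sum of squares of Trp53. Wrap53, which overlaps the start of Trp53 on the other strand, was at 19.8 to 24.0 in the 6 libraries and did not follow that order. The strand setting of the counting is not given in the sources used here, so reads of this pair cannot be told apart with certainty, and the processed mouse p53 pseudogene may share reads with Trp53.

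Cdkn2a was read at 9.83, 5.84 and 11.2 in wild type and at 12.5, 6.30 and 8.39 in knockout. Both libraries of number 2 were the lowest, and the groups overlapped. These values rest on 233 to 525 reads per library. The group means were 8.97 ± 2.80 and 9.06 ± 3.14, with a paired log2 change of 0.01 (95% interval -0.39 to 0.41, limma adjusted p = 0.979). The changes within the pairs went both ways, 0.32, 0.09 and -0.38. Between numbers the adjusted p was 0.0510, just above the threshold, with a highest number mean 1.84 times the lowest.

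Mdm2, the ubiquitin ligase that marks p53 for destruction, was at 71.6, 68.4 and 70.8 in wild type and at 76.7, 79.7 and 76.1 in knockout. All 3 knockout libraries lay above all 3 wild type libraries, and the spread within each group was small. The means were 70.2 ± 1.67 and 77.5 ± 1.91, a log2 change of 0.14 that did not pass (limma adjusted p = 0.9998 unpaired and 0.238 paired). Its paired 95% interval ran from -0.0001 to 0.28. Mdm2 was also the member that differed least between replicate numbers, with a highest number mean 1.01 times the lowest and 0.570% of the sum of squares. Mdm4, the related inhibitor that masks the transactivation domain of p53, was at 98.9, 94.2 and 107.2 in wild type and 109.7, 95.4 and 107.6 in knockout (log2 change 0.06, paired adjusted p = 0.585).

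**Figure D2:**
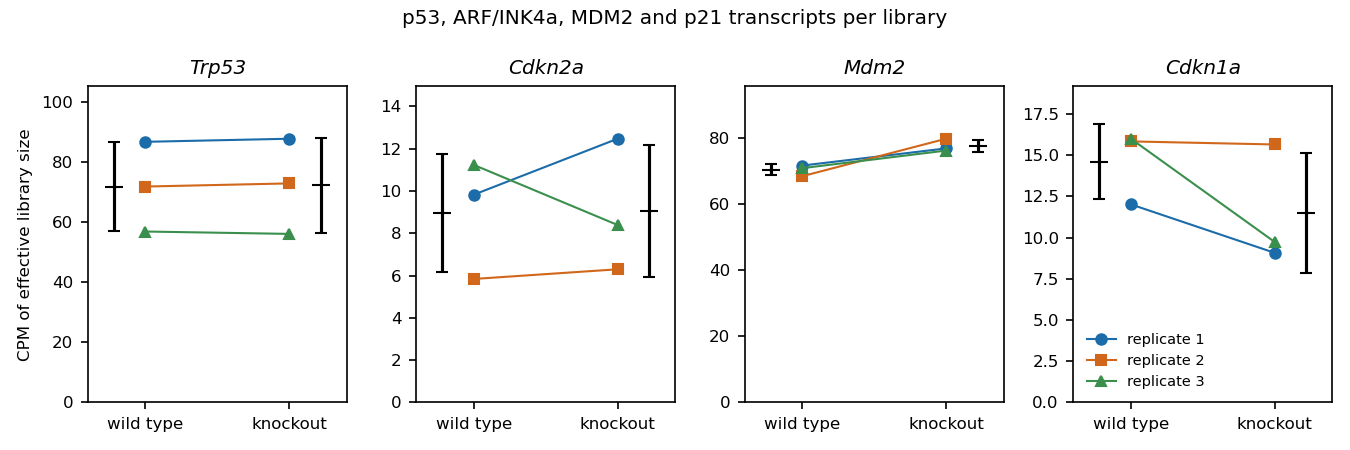
Level in CPM (vertical axes, starting at 0) of Trp53, Cdkn2a, Mdm2 and Cdkn1a in each library. A line connects the wild type and the knockout library of a number, and black bars give the group mean with its SD (n = 3). The lines of Trp53 are flat and apart, at 87.3, 72.4 and 56.5 on average for numbers 1, 2 and 3, whereas the Mdm2 values run from 68.4 to 71.6 in wild type and from 76.1 to 79.7 in knockout.

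Ccng1 and Ppm1d are further inhibitors of the pathway that p53 itself switches on, and neither passed the test. Ccng1, cyclin G1, which recruits a phosphatase to MDM2, was at 199.1, 155.8 and 229.0 in wild type and at 209.4, 203.1 and 213.8 in knockout. Wild type replicate 2 was the lowest of the 6 (log2 change 0.12, paired adjusted p = 0.522). Ppm1d, the phosphatase WIP1 that reverses damage signalling, was at 57.0, 49.7 and 51.2 and at 57.4, 47.2 and 50.4 (log2 change -0.03, paired adjusted p = 0.797), and its 3 replicate numbers did not overlap. In the promoter stretches above, Mdm2, Ccng1 and Ppm1d each held a match to the p53 decamer, as did Trp53.

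Cdkn1a, which encodes the cell cycle inhibitor p21 and whose match to a pair of p53 decamers is printed above, was at 12.0, 15.8 and 16.0 in wild type and at 9.08, 15.7 and 9.75 in knockout. Knockout replicates 1 and 3 were the lowest of all, and knockout replicate 2 matched its wild type partner. The means were 14.6 ± 2.25 and 11.5 ± 3.62, a log2 change of -0.35 (limma adjusted p = 0.9998 unpaired and 0.244 paired). Its paired 95% interval ran from -0.71 to 0.01.

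The other arrest and stress members included Plk2, with the highest log2 change of all, and none passed limma. Plk2, a polo-like kinase, was at 14.0, 2.76 and 2.44 in wild type and at 13.8, 13.2 and 6.97 in knockout. Number 1 was high in both groups, so the difference lay in pairs 2 and 3. Its log2 change was 1.04 (paired 95% interval 0.10 to 1.97, limma adjusted p = 0.214). Plk3, a related kinase, was at 2.46, 1.35 and 2.48 and at 6.09, 2.21 and 2.47, high only in knockout replicate 1 (log2 change 0.49, paired adjusted p = 0.297). Gadd45a, a growth arrest and DNA damage protein, was at 8.20, 6.29 and 6.89 and at 6.45, 10.9 and 11.4, lower in pair 1 and higher in pairs 2 and 3 (log2 change 0.35, paired adjusted p = 0.410). Btg2, an antiproliferative cofactor of mRNA decay, was at 92.6, 69.3 and 94.6 and at 98.0, 70.3 and 104.6. Its numbers differed (limma F test, adjusted p = 0.00758), with number 2 the lowest, and its log2 change between groups was 0.08 (paired adjusted p = 0.414).

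Sesn1 and Sesn2, sestrins that restrain mTORC1 under stress, were higher in knockout in all 3 pairs, as 16.7% of all tested genes were. Their smallest log2 changes were 0.03 for Sesn1 in pair 2 and 0.04 for Sesn2 in pair 1. Sesn1 was at 57.3, 64.5 and 65.1 in wild type and at 62.9, 66.1 and 75.9 in knockout (log2 change 0.13, paired adjusted p = 0.295). Sesn2 was at 4.25, 3.53 and 4.15 and at 4.39, 5.09 and 5.24 without overlap between the groups (log2 change 0.25, paired adjusted p = 0.347). Neither passed. Trp53inp1, a stress protein that promotes autophagy, had pairs that went both ways, with 197.4, 176.2 and 179.1 in wild type and 289.0, 122.3 and 226.1 in knockout. Its knockout libraries lay on both sides of the wild type range (log2 change 0.12, paired adjusted p = 0.772).

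Of the members with roles in cell death, some were well covered and others held almost no reads. Apaf1, the core of the apoptosome, was at 66.5, 99.4 and 102.8 in wild type and at 63.3, 96.5 and 93.4 in knockout. Number 1 lay below the others in both groups (limma F test between numbers, adjusted p = 0.00414), and the paired log2 change was -0.08 (95% interval -0.21 to 0.05, adjusted p = 0.400). Aen, an exonuclease of apoptotic cells, ranged from 63.6 to 87.3 (log2 change 0.08), and Ei24, an endoplasmic reticulum protein, from 51.3 to 60.9 (0.01). Zmat3, an RNA-binding zinc finger protein, was at 9.002, 1.85 and 12.0 in wild type and at 15.2, 2.89 and 8.49 in knockout. Both libraries of number 2 stood far below the rest, with a highest number mean 5.11 times the lowest (limma F test, adjusted p = 0.0117), whereas the log2 change between groups was 0.23 (paired adjusted p = 0.616). Phlda3, an inhibitor of AKT, was at 0.775, 0.526 and 2.08 and at 0.965, 2.99 and 2.25 (log2 change 0.54, paired adjusted p = 0.368).

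Fas, Tnfrsf10b and 3 further members were too low to test. Fas, the CD95 receptor, held 3 to 13 reads per library and Tnfrsf10b, the TRAIL receptor, 6 to 22. Eda2r, a receptor of ectodysplasin, held 4 to 28, and Perp, a desmosome protein, 0 to 3. Perp had no read in wild type replicate 3 and knockout replicates 1 and 3, where a count of 0 allows values up to 0.0642, 0.0998 and 0.0711, counting error only. Gdf15, a secreted stress cytokine, held 5, 8 and 4 reads in wild type and 2, 27 and 19 in knockout. Its highest libraries were therefore knockout replicates 2 and 3.

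Of the DNA repair members, Ddb2 had the lowest log2 change of all members. Ddb2, a sensor of ultraviolet damage in nucleotide excision repair, was at 10.1, 11.4 and 6.87 in wild type and at 6.75, 8.78 and 5.15 in knockout. It was lower in all 3 pairs, by similar amounts, while the groups overlapped because number 3 was low in both. The means were 9.47 ± 2.34 and 6.89 ± 1.82, a log2 change of -0.41 (paired 95% interval -0.66 to -0.15). It did not pass (limma adjusted p = 0.9998 unpaired and 0.140 paired). Its numbers were called as well (F test, adjusted p = 0.0251), but not without number 2 (0.0846) or number 3 (0.277), without the filter on low values (0.0997) or without group in the fit (0.187). Xpc, its partner in damage recognition, was at 46.3, 48.6 and 46.0 and at 42.4, 45.0 and 44.5 (log2 change -0.09, paired adjusted p = 0.385). Every knockout library lay below every wild type library for Xpc, with a knockout to wild type ratio of 0.916 to 0.967 in the pairs.

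Ercc5, the repair endonuclease XPG, was at 25.6, 16.9 and 17.4 in wild type and at 24.7, 19.0 and 18.3 in knockout, high in number 1 in both groups (limma F test, adjusted p = 0.0227; log2 change between groups 0.06). Polk, a translesion polymerase, was lower in all 3 pairs, at 18.4, 22.7 and 17.4 and at 14.8, 19.7 and 16.2 (log2 change -0.19, paired adjusted p = 0.244). Rrm2b, the p53-inducible ribonucleotide reductase subunit, ranged from 46.8 to 68.5 (log2 change -0.06). Among members with metabolic or surface roles, Fdxr, which passes electrons to ferredoxin, ranged from 24.5 to 33.1 (-0.07) and Dcxr, a xylulose reductase, from 2.30 to 4.99 (-0.01).

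Cd80, a costimulatory ligand for T cells, was at 0.881, 0.251 and 0.342 in wild type and at 3.46, 1.13 and 0.735 in knockout. It was higher in all 3 pairs on 10 to 104 reads per library, and it passed the filter on low values only through the knockout libraries. Its log2 change was 0.79 (paired 95% interval 0.18 to 1.41, limma adjusted p = 0.177), and DESeq2 with the pairs called it (adjusted p = 0.0356). Plk2 had an adjusted p = 0.0419 there, and edgeR with the pairs called neither of them (0.122 and 0.231).

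Myeloid transcripts moved with some of these members. Plk2, Gadd45a and Gdf15 were higher in knockout than in wild type in pairs 2 and 3, as the myeloid markers were. In pair 1 the knockout to wild type ratio was 0.787 for Gadd45a and 0.982, almost no difference, for Plk2. Gdf15 held only 5 reads in wild type and 2 in knockout there. Cd80 was higher in knockout in all 3 pairs. Plk2 was also high in both libraries of number 1, and Cd80 was highest in knockout replicate 1, the libraries in which the myeloid sum was lowest. With knockout replicates 2 and 3 left out together, the log2 change was -0.12 for Gadd45a, 1.35 for Plk2 and 1.60 for Cd80. In that fit knockout replicate 1 stands alone and the pairs are ignored. The part of myeloid RNA in these values was not tested.

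**Figure D3:**
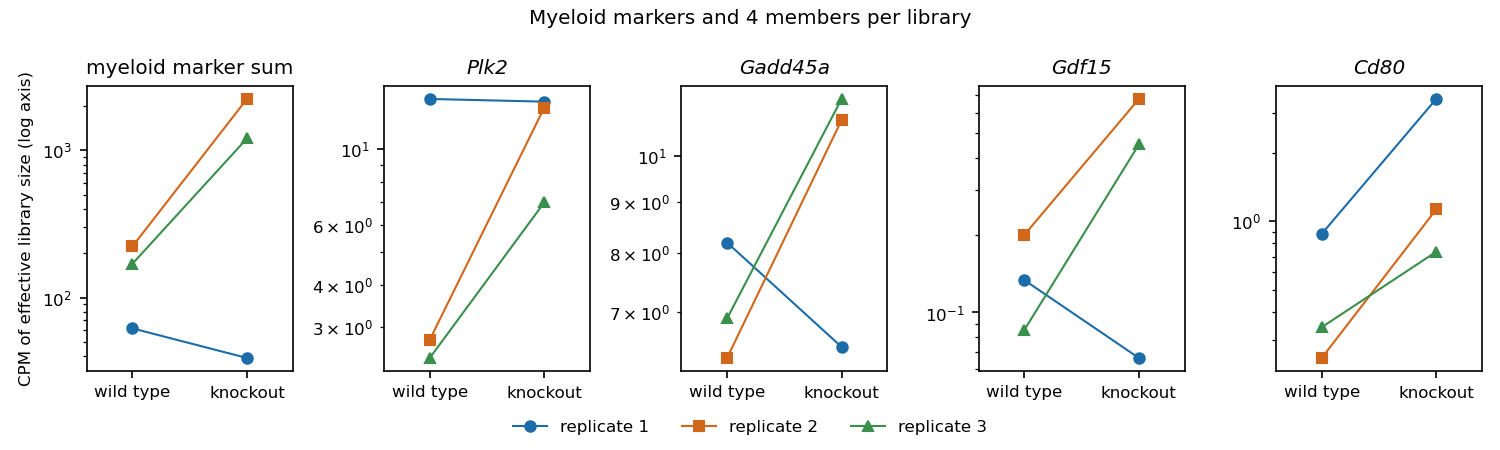
Level in CPM (log axes, each with its own range) of 15 myeloid markers summed and of Plk2, Gadd45a, Gdf15 and Cd80. A line connects the wild type and the knockout library of a number. The marker sum reaches 2237 and 1205 in knockout replicates 2 and 3, where Plk2, Gadd45a and Gdf15 lie above their wild type partners, and Cd80 peaks at 3.46 in knockout replicate 1.

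Between replicate numbers the members differed more than between groups, as genes of the whole table did. The share of the sum of squares that went to replicate number had a median of 64.8% over the 27 members and 74.5% over all tested genes, against 10.7% and 9.56% for group. The F test called 6 of 27 members, Trp53, Zmat3, Btg2, Ercc5, Apaf1 and Ddb2, where it called 40.5% of all genes. With 1 number left out, the call was lost for Trp53 without number 3 (adjusted p = 0.0884), for Zmat3 (0.656) and Btg2 (0.451) without number 2, for Apaf1 (0.990) without number 1 and for Ercc5 without number 1 (0.973) or 3 (0.0649). Both libraries of 1 number lay above or below the other 4 in 18 members, beside 70.7% of all genes, and the ranges of the 3 numbers did not overlap in 3, Trp53, Dcxr and Ppm1d, beside 28.2%. The labels do not say whether a number stands for a mouse, so these differences are between libraries that share a number.

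The members that set a number apart did so in both directions. Trp53 was highest in number 1 and lowest in number 3. Of the members whose libraries of 1 number stood apart, number 1 was above in 4, Trp53, Plk2, Ercc5 and Ppm1d (14.7% of all genes), and below in 5, Sesn1, Ei24, Dcxr, Apaf1 and Fdxr (32.1%). Number 2 was above in 1, Polk (15.8%), and below in 7, Cdkn2a, Mdm4, Trp53inp1, Zmat3, Btg2, Plk3 and Ppm1d (8.77%). Number 3 was above in 3, Ccng1, Aen and Dcxr (16.9%), and below in 1, Trp53 (10.4%).

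**Figure D4:**
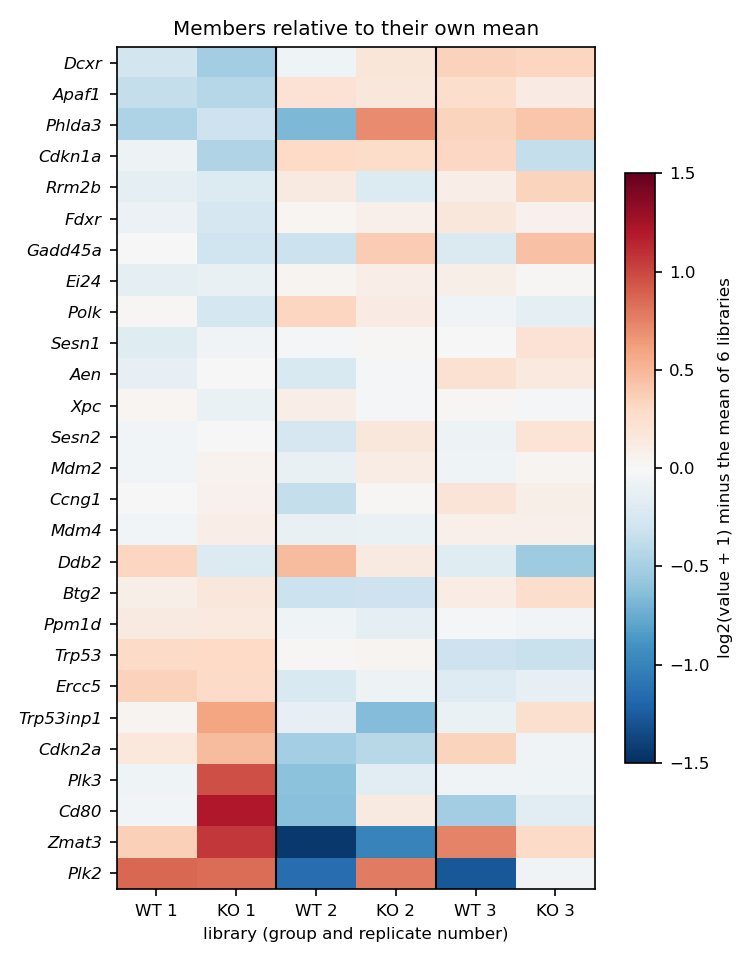
Log2 of value plus 1 minus the mean of the 6 libraries (colour) for each tested member (vertical axis) in each library (horizontal axis), arranged by replicate number and sorted by the level in number 1. Apaf1 is below its mean in both libraries of number 1, Zmat3 in both of number 2 and Trp53 in both of number 3, while Mdm2 stays near 0 in all 6.

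**Figure D5:**
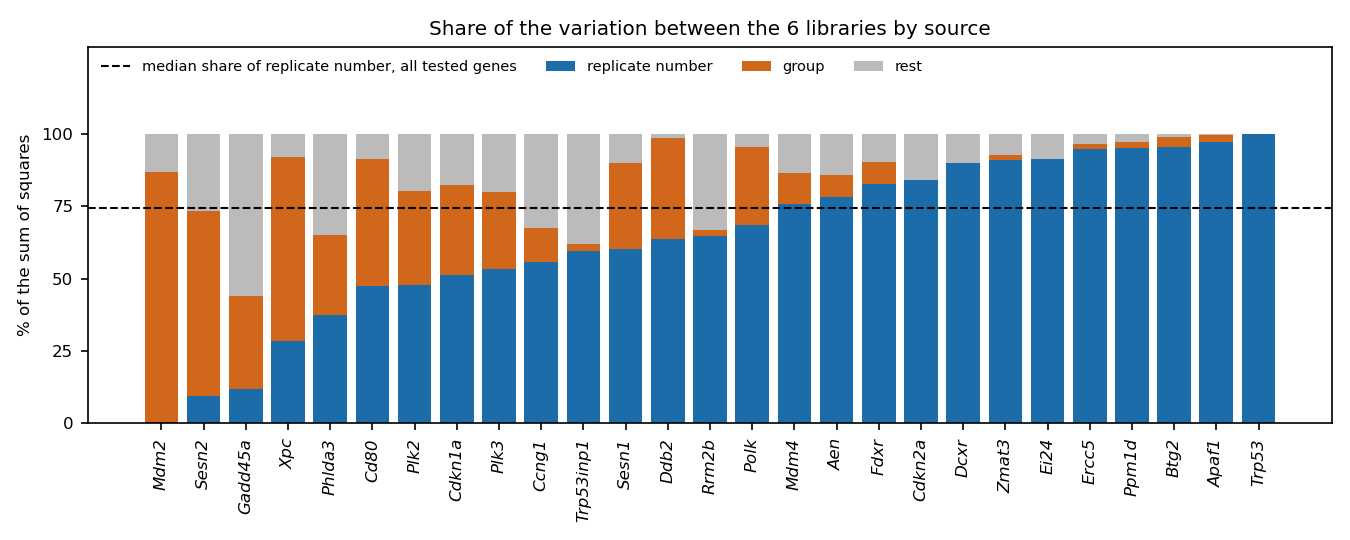
Share of the sum of squares between the 6 libraries (percent, vertical axis) that goes to replicate number, to group and to the rest, for each tested member. Trp53 stands at 99.9% for replicate number and Mdm2 at 0.570%, with the dashed line at the median of all tested genes, 74.5%.

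The wider pathway was read from 5 lists with 106 tested genes, and no gene of them passed limma between the groups in either fit. Of the genes with smallest paired p in each list, Bmi1, a Polycomb repressor of the Cdkn2a locus, was at 34.2, 49.5 and 108.8 in wild type and at 45.6, 58.4 and 128.3 in knockout, higher in all 3 pairs (log2 change 0.29, paired adjusted p = 0.117). E2f2, a cell cycle transcription factor, went from 282 ± 28.8 to 224 ± 11.8 (log2 change -0.33, paired adjusted p = 0.0877). In that list of ARF and INK4 regulators 13 genes were tested, with a median log2 change of -0.05. Among 18 regulators and cofactors of p53 the median was -0.10, with the acetyltransferase Ep300 at -0.23 and the ribosomal protein Rpl5, which binds MDM2, at -0.26 (paired adjusted p = 0.160 and 0.172). Trp63 and Trp73, the relatives of p53, were under 1 in every library.

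Damage signalling upstream of p53 and further p53 targets gave no call either. The 20 damage signalling genes had a median log2 change of -0.02, with Trp53bp1, the adaptor 53BP1, at -0.30 and H2afx at -0.19 (paired adjusted p = 0.115 and 0.222). The 35 further targets had a median of -0.01. Trp53i11 went from 85.2 ± 48.6 to 51.6 ± 34.1 and was lower in all 3 pairs (log2 change -0.86, limma paired adjusted p = 0.112), and the small GTPase Rap2b was higher in all 3 (0.31, 0.115). Genes of the death programme on that list, Bax (log2 change -0.07), Bbc3, which encodes PUMA (-0.11), and Pmaip1, which encodes NOXA (0.04), were picked for mention after their values were seen and did not pass. The 20 genes that p53 and p21 are known to hold down had a median of -0.08, with Top2a at -0.24 and Plk1 at -0.15 (paired adjusted p = 0.152 and 0.203). DESeq2 with the pairs called 6 of the 106, Bmi1 and Dgka higher and E2f2, Rpl5, Trp53i11 and Top2a lower, beside 7.01% of all genes, while edgeR with the pairs called 0. Between replicate numbers 46 of the 106 were called, beside 40.5% of all genes.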

How the data were processed

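RNA-seq of 6 libraries was used, 3 per group. Tools listed, without their roles, in the submitters' processing notes are STAR 2.4.2a, CASAVA, edgeR and HTSeq, and the genome is mm9. The deposited table is named as FPKM, but its values are a signal that the authors scaled by library only, without gene length: within a library all values were whole multiples of 1 step, the same for every gene (100% within 0.01 reads). The unpaired limma test on log2(value + 1), trended, two-sided, was the planned fit. Count tests used the recovered reads. Deviations from group means correlated at 0.733, 0.726 and 0.837 between libraries of numbers 1, 2 and 3 across genes, which was read as pairing by number. Between other libraries they correlated at -0.606 to -0.139. Such deviations cancel out within a group, which by itself tends to make these negative once those of the same number are positive. The labels call the replicates biological without naming mice, so the unpaired p-values reflect how far these 6 libraries spread within their groups. Those of the paired fit and of the F test between numbers rest on the spread of knockout minus wild type around its mean. Differences between numbers were tested with limma's moderated F test, group in the fit. The fits were tested on simulated data. For the comparison of groups these data held no differences between replicate numbers, so they do not show how the fits behave where numbers differ. No 2 libraries agreed within counting noise (chi-square over degrees of freedom at least 55.0). Members, lists, named genes (all members, and the 2 smallest paired p per pathway list) and tests were chosen with earlier results of these data known. Of 123 pathway list genes, 121 were found, 1 of them (Tigar) by an older name. The marker lists for T and NK cells, stroma and red cells summed to 44.0 to 116.5, 55.2 to 105.7 and 0.561 to 1.50 per library, led by Lck and Cd2 and by Pecam1 and Thy1, with no red cell marker high enough to test. The analysis used limma 3.58.1, DESeq2 1.42.0 and edgeR 4.0.16 in R 4.3.3, and Python 3.11.15.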

Additional observations from a re-analysis of the deposited data

How the results depend on the processing

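No member was called between the groups under either other pseudocount, without the filter, under both other scalings, by edgeR, by DESeq2 without the pairs or with any 1 library left out. With the replicate block (median unchanged at 0.06) the count was 0 in limma and edgeR and 2 in DESeq2, and for the pathway lists 6 in DESeq2. With 1 replicate number left out and the block kept it was 0 to 2, with Gadd45a and Plk2 called without number 1, and 0 to 7 for the pathway lists; without number 1 that fit called 7.97% of all genes. The median log2 change of the members was 0.1006 under quantile normalization, 0.1120 with equal totals, -0.0041 (without wild type replicate 2) to 0.1457 (without wild type replicate 3) with 1 library left out, 0.0117 (without number 1) to 0.0523 with 1 number left out and the block kept, and 0.1181 without knockout replicates 2 and 3 together, an alternative chosen after seeing the data. Between replicate numbers 5 to 9 members were called under the other settings with all libraries, against 6, where 16.7% to 41.1% of all genes were called. With 1 number left out, 4 to 6 were called, beside 17.6% to 32% of all genes: Trp53 lost its call without number 3, Zmat3 and Btg2 without number 2, Ercc5 without number 1 or 3, Apaf1 without number 1, and Ddb2 without number 2 or 3. Calls were gained for Plk2 and Ppm1d under quantile normalization, Ppm1d and Cd80 in edgeR, Aen without number 1, and Plk2 and Dcxr without number 2. Cdkn2a was called with a pseudocount of 0.5 or 0.1, under quantile normalization and without number 1 or 3 (adjusted p = 0.0331 to 0.0490), and Ddb2 was not called without the filter or without group in the fit. The cause was not tested. Members under about 30 reads per library (Perp, Fas, Tnfrsf10b, Eda2r, Gdf15) are limited by depth.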
